A study of Mus musculus with 8 samples.

Results

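Vesicular transmitter transporters are membrane proteins that load transmitter into synaptic vesicles and secretory granules. The family described here has 7 genes. They were chosen by name, as the transporters for glutamate (Slc17a6, Slc17a7 and Slc17a8), for monoamines (Slc18a1 and Slc18a2), acetylcholine (Slc18a3) and the inhibitory transmitters GABA and glycine (Slc32a1). Of the 7, 6 were matched by symbol among the 21369 genes of the authors' normalized table. Slc17a7 was not matched there and counts as not measured by that rule; its identifier was found in the files of gene counts, which hold 48823 genes, and its few reads are given for completeness.

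RNA was sequenced from the utricle, an inner ear organ that senses gravity, of mouse embryos at E15.5. The 4 mutant libraries are labelled Rest(+/deltaExon4), which means that 1 of the Rest alleles lacks exon 4, and the 4 control libraries are labelled wild-type. The strain label is C57BL/6 except in wild-type replicate 4, which is labelled C57BL/7 and E15.6. The titles call the mutants knockouts, although they keep 1 allele without the deletion. The deletion is given only as a genotype, and no promoter, Cre or treatment is named. Each library pooled RNA from 7 to 9 mice. Nothing states whether the pools shared litters, so the p-values below measure the spread between these libraries.

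REST is a repressor that keeps neuronal genes silent in other cells, and deletion of its exon 4 changes the alternative splicing through which hair cells release these genes from repression. Vesicular transporters use the proton gradient made by the vacuolar proton pump to fill a vesicle, and the transporter that a cell makes sets which transmitter it can release. Hair cells signal to the nerve with glutamate, for which the auditory inner hair cell relies on VGLUT3, the product of Slc17a8. VGLUT2, from Slc17a6, and VGLUT1, from Slc17a7, are best known as the transporters of glutamatergic neurons. VMAT2, from Slc18a2, loads dopamine, noradrenaline, serotonin and histamine, while its relative VMAT1, from Slc18a1, is known from neuroendocrine cells. VAChT, from Slc18a3, marks cholinergic neurons such as the efferents that reach the inner ear, and VIAAT, from Slc32a1, inhibitory neurons.

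Promoter sequences are shown for the 3 transporter genes on which the results turn: the pair that fell in the mutants and the most highly expressed member. Each run is the 250 bases before a RefSeq transcription start (build GRCm38.p6), written 5′ to 3′ on the gene's own strand. Capitals mark matches, on either strand, to GACAGCGC, the core of the right side of the REST binding site known as RE1. These letters were picked after the sequences had been read.
Slc17a8, chr10:89621250-89621499, minus strand: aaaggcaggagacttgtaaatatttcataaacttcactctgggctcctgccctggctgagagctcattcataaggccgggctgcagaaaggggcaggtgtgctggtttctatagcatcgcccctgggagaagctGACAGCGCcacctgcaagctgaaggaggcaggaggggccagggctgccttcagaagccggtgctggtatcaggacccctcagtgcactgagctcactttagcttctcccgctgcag
Slc17a6, chr7:51621580-51621829, plus strand: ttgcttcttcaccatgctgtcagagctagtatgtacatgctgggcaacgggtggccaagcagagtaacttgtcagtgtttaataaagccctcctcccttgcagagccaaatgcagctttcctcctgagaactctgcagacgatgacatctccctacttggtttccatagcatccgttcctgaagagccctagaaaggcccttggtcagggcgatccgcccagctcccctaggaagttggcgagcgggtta
Slc18a2, chr19:59260628-59260877, plus strand: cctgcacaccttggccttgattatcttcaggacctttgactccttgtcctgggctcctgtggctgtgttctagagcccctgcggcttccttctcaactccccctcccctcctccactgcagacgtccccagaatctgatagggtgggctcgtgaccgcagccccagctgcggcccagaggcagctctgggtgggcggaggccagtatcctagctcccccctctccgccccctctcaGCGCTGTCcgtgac

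The match in the Slc17a8 promoter begins 116 bases before the start, and the match in the Slc18a2 promoter begins 14 bases before it, in reverse orientation as GCGCTGTC. RefSeq windows (these 250 bases and the first 50 of the transcript) were found for 6 of the 7 genes, 8 windows in all, and 2 of the 8 held this core. Among all 32851 RefSeq windows 1.041% held it. The core of the left side of the site, TCAGCACC, was in none of the 8 windows and in 1.65% of all windows. A complete RE1 consensus, searched on both strands, was in none of the 8 and in 1 of all windows. Both Slc17a6 windows lacked these cores, and so did another Slc17a8 window, whose upstream bases (chr10:89599816-89600065, minus strand) are not printed. These matches describe letters only. Of the pair with the core, Slc17a8 passed the test described below and Slc18a2 did not.

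The libraries held 22.4 to 24.6 M read pairs on genes in mutants and 20.4 to 23.8 M in wild types. A pair of library measures moved with genotype without overlap. Mutant libraries had 25.2% to 29.97% of their read pairs not assigned to a gene, for any reason, against 30.1% to 33.9% for wild types. They had 23408 to 23989 genes with at least 1 read against 24265 to 24687. The part of both measures in the results was not tested. Rest itself was at 132, 125, 126 and 126 CPM (counts per M read pairs, with library sizes scaled by TMM) in mutant replicates 1 to 4 and at 122, 116, 122 and 106 CPM in wild-type replicates 1 to 4. All mutants were above all wild types, without passing the test (by edgeR, adjusted p = 0.456), and since a count per gene is blind to exon use it is no check of the deletion. Defining genes of the labelled organ were present in every library: the hair cell factor Pou4f3 was at 98.8 to 126 CPM, the prosensory and supporting cell factor Sox2 at 26.3 to 65.4 CPM, and the Schwann cell factor Sox10 at 40.7 to 62.8 CPM.

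The glutamate transporter transcripts fell in the mutant utricles. Slc17a6 fell 10.8-fold (95% interval 4.44 to 26.5) and Slc17a8 fell 2.36-fold (95% interval 1.73 to 3.21), while the monoamine transporter genes did not pass the test and the remaining transporters did not pass the filter on low counts. A gene was tested when it passed edgeR's filter on low counts, as 4 of the 7 members did. The threshold was a Benjamini-Hochberg adjusted p of 0.05, with the adjustment made across the 16990 tested genes. Of the 4 members tested, 2 were lower and 0 higher by edgeR's quasi-likelihood test. Among all genes tested 1.02% were lower and 0.147% higher. DESeq2 called 2 members lower and 0 higher as well, beside 411 lower and 153 higher among all 16990 genes. At an unadjusted edgeR p under 0.05, which 13.4% of all genes tested had, 3 members were lower and 0 higher. All mutant libraries lay below all wild types for 2 members (4.89% of all genes tested) and above them for 0 members (2.98%).

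Slc17a8 (ENSMUSG00000019935, chromosome 10, 89574020 to 89621253, minus strand, GRCm38) was counted in 75, 84, 114 and 104 read pairs in mutant replicates 1 to 4 and in 262, 190, 171 and 239 in wild-type replicates 1 to 4. Scaled, the mutants were at 3.22, 4.01, 4.76 and 4.25 CPM and the wild types at 11.1, 8.78, 6.92 and 11.6 CPM. Every mutant library lay below every wild-type library. The lowest wild-type library was replicate 3 and the highest mutant library was also replicate 3. The means were 4.06 ± 0.643 CPM in mutants and 9.60 ± 2.18 CPM in wild types (SD, n = 4 each). The log2 change was -1.24 ± 0.20 (SE; edgeR adjusted p = 0.0137). Without wild-type replicate 1 the call was lost, with a log2 change of -1.15 and adjusted p = 0.0553 by edgeR.

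Slc17a6 (ENSMUSG00000030500, chromosome 7, 51622006 to 51671119, plus strand, GRCm38) was close to the limit of detection in the mutants. It was counted in 15, 12, 2 and 3 read pairs in mutant replicates 1 to 4 and in 51, 54, 162 and 86 in wild-type replicates 1 to 4. On the CPM scale these were 0.643, 0.574, 0.0835 and 0.123 in mutants against 2.17, 2.49, 6.55 and 4.17 in wild types. The groups did not overlap, and wild-type replicate 3 was highest. The means were 0.356 ± 0.293 and 3.85 ± 2.01 CPM (SD, n = 4 each), the log2 change was -3.44 ± 0.58 (SE), and 17 of the 16990 genes tested had a lower log2 change. The edgeR adjusted p was 0.0175. It was 0.0575 without wild-type replicate 3 and 0.0518 without mutant replicate 4, with log2 changes of -3.05 and -3.15, so the call ended and the size was largely kept.

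Slc17a7 (ENSMUSG00000070570, chromosome 7, 45163949 to 45176142, plus strand, GRCm38) had 0, 4, 2 and 3 read pairs in mutant replicates 1 to 4 and 0, 0, 5 and 6 in wild-type replicates 1 to 4. Both genotypes thus held libraries at 0 and libraries with a few reads, and the gene was not tested. A count of 0 allows up to 3 counts, or 0.128 to 0.139 CPM in the 3 libraries at 0. Such floors, and the intervals on shares below, cover counting error only.

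**Figure D1:**
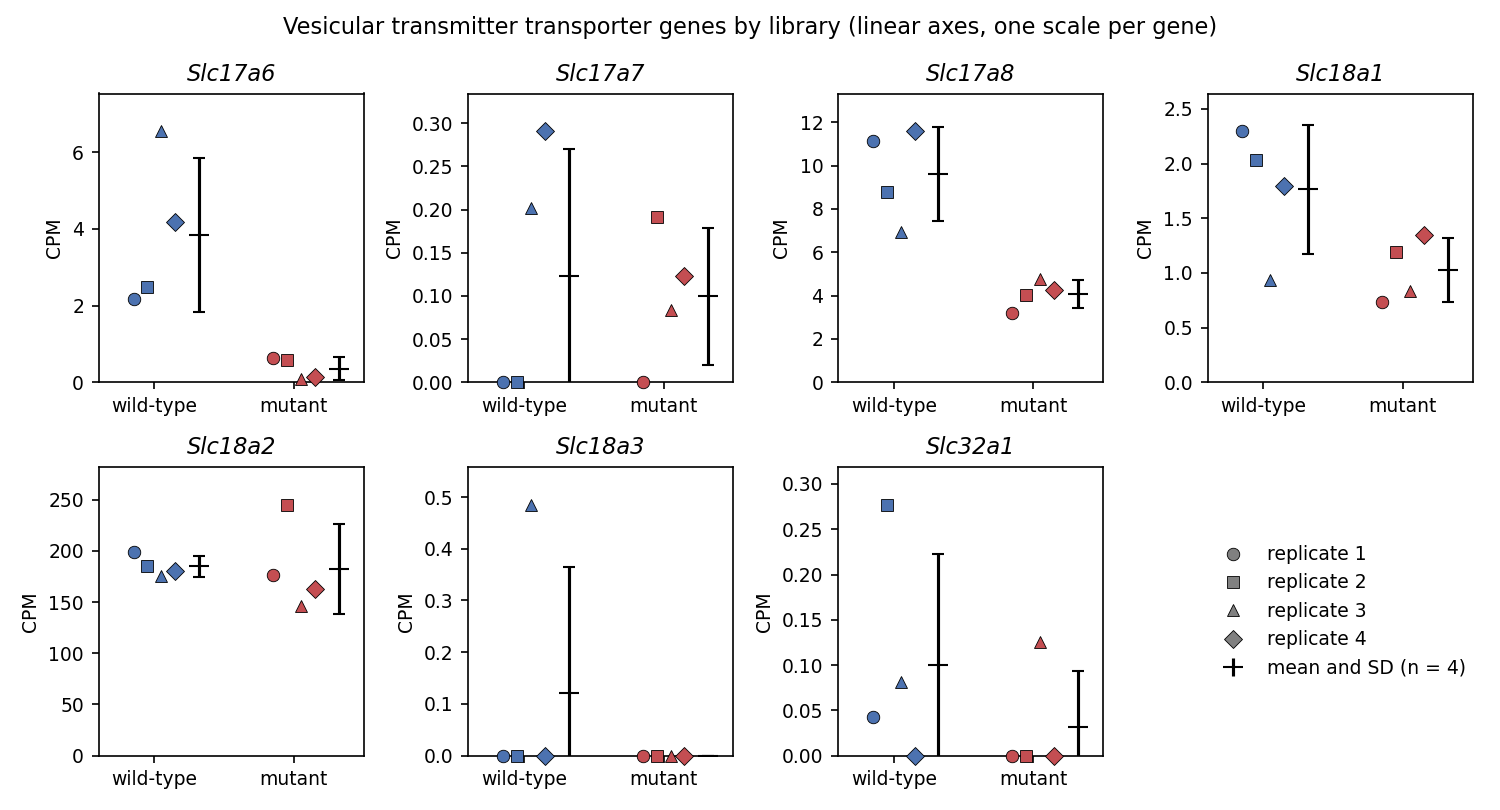
Level of each vesicular transmitter transporter gene in CPM (linear axis, 1 scale per gene) in the 4 wild-type (blue) and 4 mutant (red) libraries, with the symbol giving the replicate and the bar the mean and SD. Slc17a6 and Slc17a8 do not overlap between genotypes, Slc18a2 overlaps between them, and Slc17a7, Slc18a3 and Slc32a1 stay under 0.5 CPM.

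The levels of the 3 glutamate transporter genes were then summed. The sum was 3.86, 4.78, 4.93 and 4.50 CPM in mutant replicates 1 to 4 and 13.3, 11.3, 13.7 and 16.1 CPM in wild-type replicates 1 to 4. The sums did not overlap between genotypes, and wild-type replicate 4 was highest. The means were 4.52 ± 0.473 and 13.6 ± 1.96 CPM (SD, n = 4 each), 3.01-fold higher in wild types (exact two-sided permutation p = 0.0286, the smallest that 70 assignments allow, and 0.0571 adjusted over the 3 pooled measures). Slc17a6 and Slc17a8 each lacked overlap already, and Slc17a7 added few reads. The p of the sum was thereby fixed in advance and is no further evidence.

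Slc17a8 made up the larger part of these counts, which are not per length, in 7 of the 8 libraries and close to an even part in the other. Its share was 83.3% of 90, 84.0% of 100, 96.6% of 118 and 94.5% of 110 counts in mutant replicates 1 to 4. In wild-type replicates 1 to 4 it was 83.7% of 313, 77.9% of 244, 50.6% of 338 and 72.2% of 331 counts. The 95% Wilson intervals ran from 74.3% to 89.6% in mutant replicate 1, from 79.2% to 87.4% in wild-type replicate 1, and from 45.3% to 55.9% in wild-type replicate 3. Wild-type replicate 3 stood lowest, and wild-type replicate 1 lay among the mutants. The means were 89.6% ± 6.93 in mutants and 71.1% ± 14.5 in wild types (SD, n = 4 each), a difference that did not pass (exact two-sided permutation p = 0.0571, adjusted over 3 measures 0.0571). Without wild-type replicate 3 the difference was 11.7 percentage points in place of 18.5 (exact permutation p = 0.143).

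Whether the 2 genes changed by different amounts was tested on the log2 ratio of Slc17a8 to Slc17a6 in each library, with 0.1 CPM added to both. The ratio was 2.16, 2.61, 4.73 and 4.29 in mutant replicates 1 to 4 and 2.31, 1.77, 0.08 and 1.45 in wild-type replicates 1 to 4. The groups overlapped through wild-type replicate 1 and mutant replicate 1. The mean ratio was higher in mutants by 2.04 on the log2 scale, and the test did not pass (exact two-sided permutation p = 0.0571). With 1 CPM added in place of 0.1 it was higher by 0.72 (exact permutation p = 0.171). That constant exceeds the level of Slc17a6 in every mutant library (0.0835 to 0.643 CPM) and so shrinks the ratio there. The smaller difference is therefore no evidence either way. The ratio test with 0.1 CPM did not establish a larger fall of Slc17a6 than of Slc17a8 with 4 libraries a group. The edgeR intervals on the falls, 4.44 to 26.5-fold for Slc17a6 and 1.73 to 3.21-fold for Slc17a8, did not overlap. They do not test the difference itself.

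**Figure D2:**
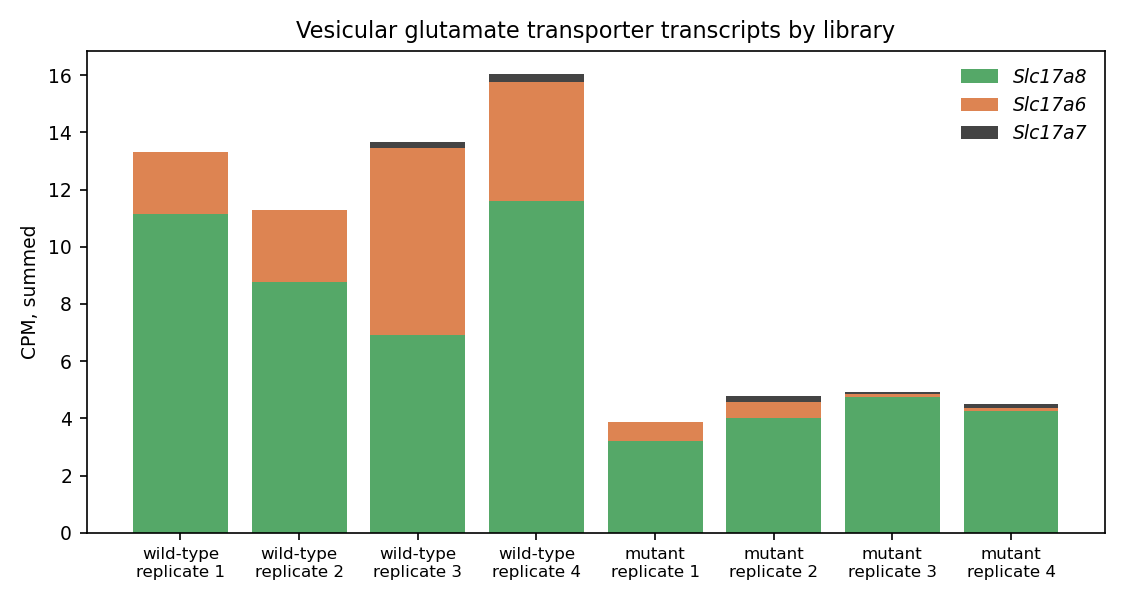
Summed CPM of the 3 vesicular glutamate transporter genes in each library, stacked by gene (bars start at 0). Wild-type libraries reach 11.3 to 16.1 CPM and mutant libraries 3.86 to 4.93 CPM, and the Slc17a6 part of the bar is largest in wild-type replicate 3.

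Markers of the 2 cell types that could carry these transcripts are given beside them. Tubb3, a tubulin of neurons, was at 15.05, 20.4, 16.4 and 18.8 CPM in mutant replicates 1 to 4 and at 18.6, 15.57, 62.0 and 13.8 CPM in wild-type replicates 1 to 4. Wild-type replicate 3 was thus highest in Tubb3 and in Slc17a6 alike, and the other 3 wild types overlapped the mutants in Tubb3 while all of them were above the mutants in Slc17a6. The neuronal intermediate filament gene Prph was also highest in wild-type replicate 3, where it reached 48.7 CPM, while the remaining wild types had 3.25 to 9.23 CPM and the mutants 4.17 to 6.59 CPM. The part of these neuronal transcripts in the level of Slc17a6 was not tested beyond leaving that library out, as given above.

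Of the 15 ganglion neuron markers all had reads in every library, and their summed level was 422 to 495 CPM in mutants and 607 to 905 CPM in wild types, without overlap. Most of that gap was in the 2 markers that passed the edgeR test. The other 13 markers were set apart because they did not pass. They summed to 263 to 328 CPM in mutants and 257 to 454 CPM in wild types, which overlap. The 454 CPM was in wild-type replicate 3. Isl1 alone made up a large part, with means of 147 CPM in mutants and 146 CPM in wild types. The split came from a test on these same libraries, so this overlap cannot show that the 13 were unchanged. Of the 15 markers 2 were lower and 0 higher by edgeR, where 1.02% and 0.147% of all genes tested were called. DESeq2 called 3 lower and 0 higher, beside 411 lower and 153 higher among all 16990 genes. The median log2 change of the markers was -0.16, against -0.0027 for all genes tested. The pair that fell were the neurofilament genes Nefm (log2 change -1.34 ± 0.08, SE; edgeR adjusted p = 1.88e-05) and Nefl (-0.89 ± 0.14; adjusted p = 0.0116). Fewer cells of a type and less RNA per cell cannot be told apart in these bulk samples.

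Most hair cell markers did not pass the test. Pou4f3 was at 121, 116, 107 and 98.8 CPM in mutant replicates 1 to 4 and at 126, 99.4, 120 and 120 CPM in wild-type replicates 1 to 4, with overlapping groups (edgeR adjusted p = 0.783). All 12 hair cell markers had reads in every library, with sums of 738 to 893 CPM in mutants and 834 to 953 CPM in wild types. Of these 12 markers 1 was lower, the release sensor gene Otof, at 84.2 ± 9.82 CPM in mutants and 167 ± 8.80 CPM in wild types (SD, n = 4; by edgeR, adjusted p = 0.000319). Among all genes tested 1.02% were lower. By edgeR 0 markers were higher, against 0.147% of all genes tested. DESeq2 called 1 lower and 1 higher, beside 411 lower and 153 higher among all 16990 genes. At an unadjusted edgeR p under 0.05, which 13.4% of all genes had, there were 3 lower and 3 higher. The median log2 change was -0.10.

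Schwann cell and supporting cell markers overlapped between the genotypes in their sums. The 8 Schwann cell markers, of which 7 were tested, summed to 647 to 780 CPM in mutants and 584 to 671 CPM in wild types, and the 10 supporting cell markers to 1624 to 1952 and 1691 to 2096 CPM. All had reads in every library. In both lists 0 genes were lower and 0 higher by edgeR and by DESeq2, with 2 of 7 tested Schwann cell and 1 of 10 supporting cell markers higher at an unadjusted p under 0.05. Such a p, in either direction, was found for 13.4% of the genes tested.

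**Figure D3:**
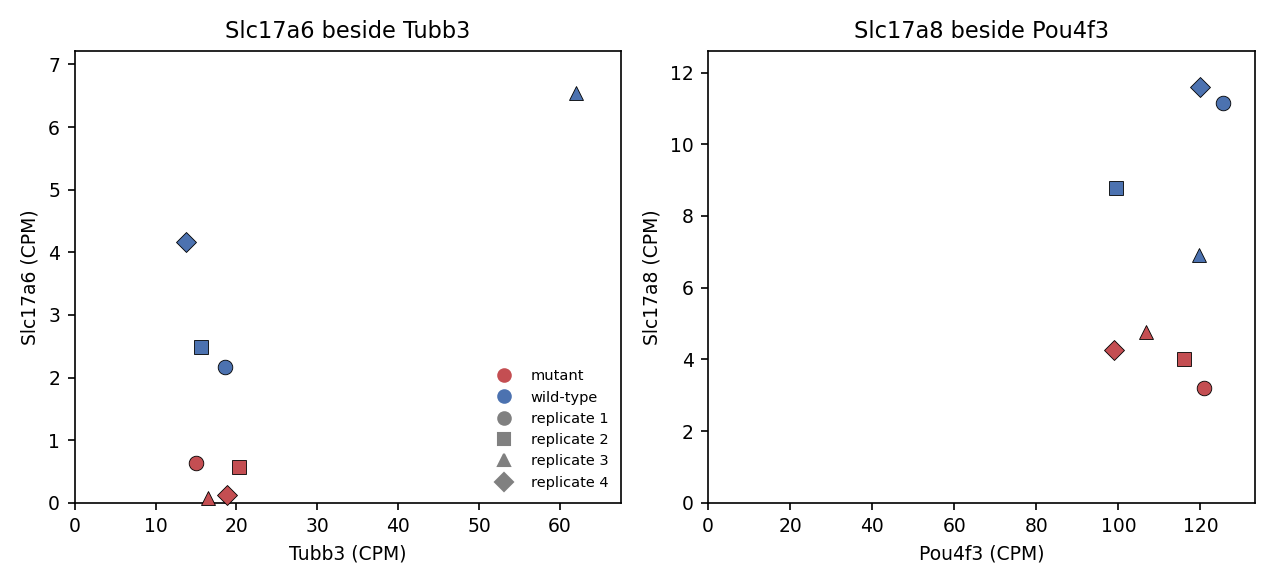
Level of Slc17a6 against the neuronal gene Tubb3 (left) and of Slc17a8 against the hair cell gene Pou4f3 (right), in CPM, 1 point per library, coloured by genotype. Wild-type replicate 3 is apart at 62.0 CPM of Tubb3. The mutant libraries are lower in both transporters and overlap the wild types in these 2 markers. Other markers of the same lists, Nefm, Nefl and Otof, were lower in mutants. The part of cell content in the transporter levels was not tested.

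The monoamine transporter Slc18a2 was the most abundant member per kilobase, and its mean level differed little between the genotypes. Slc18a2 (ENSMUSG00000025094, chromosome 19, 59260896 to 59296012, plus strand, GRCm38) was at 176, 245, 146 and 162 CPM in mutant replicates 1 to 4 and at 199, 185, 175 and 180 CPM in wild-type replicates 1 to 4. Mutant replicate 2 was highest and mutant replicate 3 lowest, with the 4 wild types between them. The means were 182 ± 43.6 and 185 ± 10.3 CPM (SD, n = 4 each), which put the gene above 93.8% of all genes tested. The log2 change was -0.02 ± 0.14 (SE, edgeR adjusted p = 0.967), and its 95% interval ran from -0.33 to 0.29, so a change larger than 1.25-fold in either direction lies outside it. Gene models of Slc18a2 and Gm29261 share 111 exon bases on opposite strands, where read pairs cannot be assigned to one of them.

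Slc18a1 (ENSMUSG00000036330, chromosome 8, 69037711 to 69089235, minus strand, GRCm38) was low. It was at 0.729, 1.19, 0.835 and 1.35 CPM in mutant replicates 1 to 4 and at 2.30, 2.03, 0.930 and 1.79 CPM in wild-type replicates 1 to 4, from 17 to 54 read pairs a library. Wild-type replicate 3 lay among the mutants and the other wild types above them. The log2 change was -0.77 ± 0.35 (SE), with a 95% interval of -1.54 to -0.01, and it did not pass (unadjusted p = 0.0487, edgeR adjusted p = 0.371).

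The acetylcholine transporter gene Slc18a3 (ENSMUSG00000100241, chromosome 14, 32462438 to 32464850, minus strand, GRCm38) had 12 read pairs in wild-type replicate 3 and 0 in the other 7 libraries. The gene is a single exon that lies within Chat, the gene of the enzyme that makes acetylcholine, and Chat had a read pair in wild-type replicate 4 only, at 0.0485 CPM. Slc32a1 (ENSMUSG00000037771, chromosome 2, 158610767 to 158615748, plus strand, GRCm38) had 0, 0, 3 and 0 read pairs in mutant replicates 1 to 4 and 1, 6, 2 and 0 in wild-type replicates 1 to 4. It shares 697 exon bases with Gm14205 on the other strand. Neither gene passed the filter on low counts, and a difference between genotypes was not detectable at this depth.

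Per kilobase of exon, levels can be set against each other between genes. In wild types the order was Slc18a2 at 35.4 ± 1.97, Slc17a8 at 2.03 ± 0.461, Slc17a6 at 0.712 ± 0.371 and Slc18a1 at 0.326 ± 0.110 CPM per kilobase (SD, n = 4). The libraries of Slc18a2 and Slc17a8 did not overlap each other or those of lower genes, whereas Slc17a6 (0.402 to 1.21) and Slc18a1 (0.172 to 0.425) overlapped. In mutants the order was Slc18a2 at 34.9 ± 8.35, Slc17a8 at 0.860 ± 0.136, Slc18a1 at 0.190 ± 0.0543 and Slc17a6 at 0.0659 ± 0.0544 CPM per kilobase (SD, n = 4). There Slc18a1 (0.135 to 0.250) lay above Slc17a6 (0.0155 to 0.119) in every library. Slc18a3, Slc32a1 and Slc17a7 were at most at 0.201, 0.0991 and 0.0540 CPM per kilobase in any library, with their order unresolved.

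None of the tested genes that make, recycle or break down the transmitters or acidify the vesicle passed the test. The lists for these functions and a list of relatives of the family and other vesicular genes make 6 lists. They hold 80 genes, of which 61 were tested. By edgeR 0 were lower and 0 higher, and DESeq2 also called 0. At an unadjusted p under 0.05, 6 were lower and 1 higher, in a comparison where 13.4% of all genes tested had such a p. The median log2 change of the 61 genes was 0.01.

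Of the 13 genes of glutamate synthesis and uptake 12 were tested, with a median log2 change of -0.04. The glial glutamate transporter gene Slc1a3 was at 389 ± 60.0 CPM in mutants and 446 ± 33.2 CPM in wild types, and the neutral amino acid transporter gene Slc38a2 at 94.6 ± 22.7 and 86.3 ± 13.3 CPM (SD, n = 4; by edgeR, adjusted p = 0.465 and 0.762). Among the genes of GABA and glycine 8 of 9 were tested (median -0.03). Gad1, which makes GABA, was at 25.7 ± 4.86 and 27.8 ± 0.656 CPM, and Abat, which breaks it down, at 73.3 ± 6.41 and 73.0 ± 2.76 CPM (adjusted p = 0.754 and 0.983 by edgeR). Gad1 thus had at least 21.2 CPM in every library, while the transporter gene for its product, Slc32a1, had at most 6 read pairs. The glycine transporter gene Slc6a5 had no reads in any library.

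Of the 13 monoamine genes 8 were tested, with a median log2 change of -0.16. Maoa, which breaks monoamines down, was at 22.8 ± 2.32 CPM in mutants and 24.1 ± 3.54 CPM in wild types (SD, n = 4; by edgeR, adjusted p = 0.840). Among the enzymes that make the substrates of VMAT2, Th, for catecholamines, was at 0.429 to 0.982 CPM in mutants and 0.213 to 0.878 CPM in wild types other than replicate 3, which was at 7.85 CPM, and Ddc was at 4.53 to 8.83 CPM over all 8 libraries. In wild-type replicate 3 the noradrenergic genes Dbh and Slc6a2 were also highest, at 1.09 and 0.890 CPM against at most 0.327 CPM in any other library.

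Of the 6 acetylcholine genes 3 were tested (median 0.06). The choline transporter gene Slc5a7 was at 3.91 ± 1.04 CPM in mutants and 3.70 ± 1.44 CPM in wild types, and the cholinesterase gene Bche at 15.63 ± 4.43 and 15.04 ± 4.23 CPM (SD, n = 4; by edgeR, adjusted p = 0.940 and 0.942). The relatives of the family and other vesicular transporters had 7 of 13 genes tested and a median log2 change of -0.36. The lysosomal sialic acid transporter gene Slc17a5, of the same family as the glutamate transporters, was at 29.1 ± 2.73 and 26.0 ± 2.06 CPM, and Slc18b1, a polyamine transporter gene, at 23.5 ± 3.60 and 18.9 ± 2.40 CPM (adjusted p = 0.517 and 0.362 by edgeR). Of the 26 genes of the vacuolar proton pump and vesicle acidification 23 were tested, with a median log2 change of 0.03. Pump subunit genes Atp6v0e and Atp6v1g1 were at 279 ± 13.2 and 254 ± 14.5 CPM and at 202 ± 8.41 and 213 ± 8.88 CPM in mutants and wild types (SD, n = 4; by edgeR, adjusted p = 0.432 and 0.647).

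**Figure D4:**
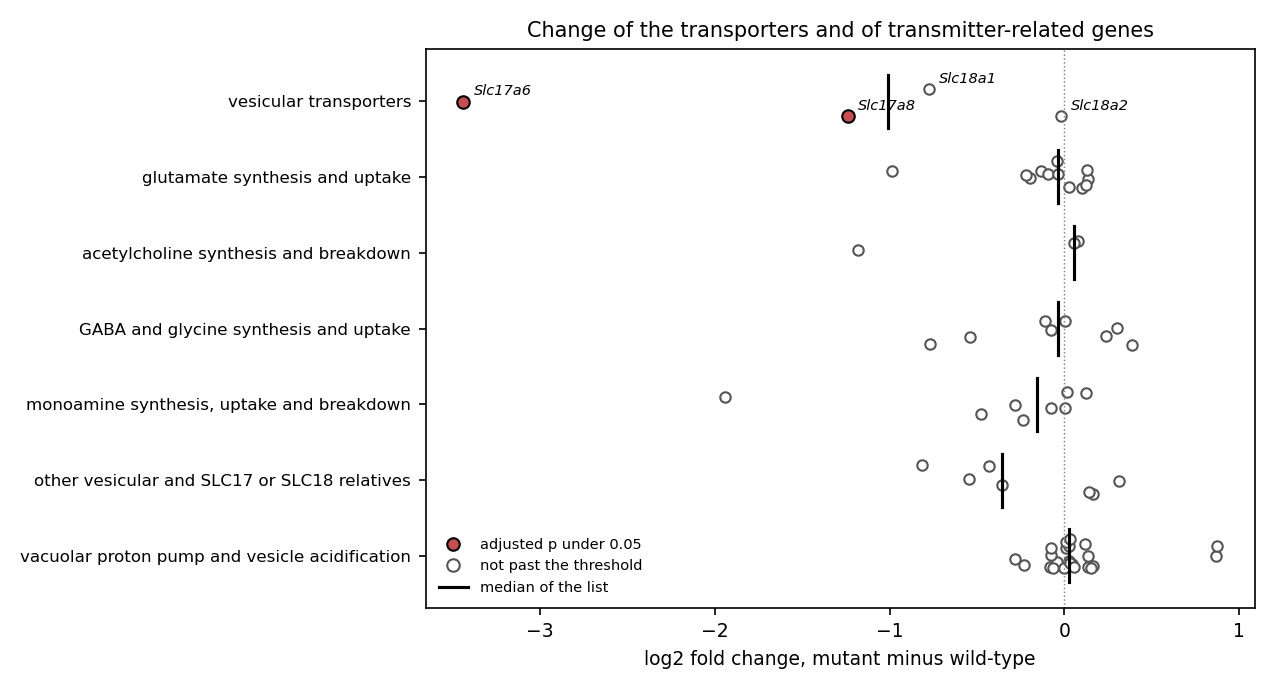
Log2 fold change (mutant minus wild-type) of each tested vesicular transporter gene and of each tested gene in the 6 transmitter lists, 1 point per gene, with the list median as a vertical bar (position within a row is only to separate points). The 2 filled points past adjusted p 0.05 are Slc17a6 and Slc17a8, and no point of the other lists is filled.

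For each member with a mean of at least 1 CPM, the 3 genes with the most similar pattern were found by Pearson's r of log2(CPM + 0.5) over the 8 libraries. The libraries fall into 2 genotypes, so a gene that fell in mutants resembles any other that fell, and r of the deviations from the genotype means is given as well. Both are descriptions of the closest of many genes. For Slc17a8 they included the antisense transcript Gm29151 (r = 0.986, deviations 0.942) and Fam183b (0.983 and 0.931). Fam183b was lower in mutants, at 7.37 ± 0.545 against 14.0 ± 1.55 CPM (SD, n = 4; by edgeR, adjusted p = 0.00462), and so was Gm29151 (1.08 ± 0.255 and 3.09 ± 1.02 CPM; adjusted p = 0.0463).

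For Slc17a6 the closest were Odf3b (r = 0.983, deviations 0.913), Nefl (0.976 and 0.861) and Disp2 (0.9755 and 0.849). Disp2 was at 0.339 ± 0.310 CPM in mutants and 3.47 ± 1.98 CPM in wild types (SD, n = 4; by edgeR, adjusted p = 0.0221). Odf3b, with 2.69 ± 0.567 and 5.49 ± 1.054 CPM, was not called (edgeR adjusted p = 0.0556). For Slc18a2 they were the DNA methyltransferase gene Dnmt3a (r = 0.9754, deviations 0.989), Tox (0.973 and 0.973) and Zfp873 (0.967 and 0.967), and for Slc18a1 Lair1 (0.970 and 0.956), Tpmt (0.968 and 0.969) and Gcc2 (0.966 and 0.958). None of these 6 genes passed the threshold, with edgeR adjusted p from 0.335 for Lair1 to 0.933 for Tox.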

How the data were processed

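Counts of read pairs per gene were deposited by the authors for 8 libraries, 4 mutant and 4 wild-type. The submitters' processing notes name STAR 2.5.2a, DESeq2 and the build GRCm38.p4. Groups follow the genotype label. The unstranded column was used, since the 2 strand columns gave a ratio of 0.998 to 1.004, so antisense partners cannot be told apart. The share of read pairs on lines that name no gene is given with the libraries. The authors' deposited table of normalized counts is a signal for 7 libraries and lacks wild-type replicate 4. It became whole reads for 100% of values (tolerance 0.001 reads) and equalled the counts. The count test on these reads called 129 genes.

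Symbols, positions and exon lengths came from GENCODE M21 (GRCm38), which held 48349 of 48823 identifiers; promoters came from RefSeq. Genes were kept by filterByExpr of edgeR 4.0.16 (minimum count 10, minimum total 15), scaled by TMM and tested by quasi-likelihood in R 4.3.3. A standard error is the log2 change over the square root of F. The other tool was DESeq2 1.42.0; other alternatives changed scaling, filter and libraries, or added a block. A check on simulated counts of the 16990 genes, for this comparison, gave the following: 24.5% of 200 genes changed 1.5-fold were recovered, 76.0% at 2-fold and 93.0% at 4-fold, with 2, 10 and 11 false calls, among genes with over 20 counts on average. Read totals per library and the members' counts are given with the results.

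The members, gene lists and tests were chosen with earlier results of these data known. Genes named are the 7 members; per list those past the threshold and the 2 with the highest mean CPM; the 3 genes most like each member; and Rest, Pou4f3, Otof, Nefl, Tubb3, Sox10 and Sox2. Prph, Th, Ddc, Dbh, Slc6a2, Slc6a5, Chat, Nefm, Gad2, Atp6v0a1, Atp6v1a, Slc38a3, Slc6a17 and Sv2a were named after their values were seen. Some genes that the rule selects are not reported here.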

Additional observations from a re-analysis of the deposited data

Results flagged for a closer look

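A single library stood apart from the other 3 of its genotype in 2 of 19 groups of 4 values examined. The rule takes the gap to the nearest value over the range, and flags about 1 in 20 groups of continuous values by chance. In both groups flagged here the other 3 values were 0. Any read is then flagged, so that rate does not apply. Slc18a3 was at 0.485 CPM in wild-type replicate 3 and at 0 in the other wild types, from 12 read pairs. Slc32a1 was at 0.125 CPM in mutant replicate 3 and at 0 in the other mutants, from 3 read pairs, a count that a library listed at 0 also allows.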

How the results depend on the processing

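Directions and calls were recomputed with other scalings, filters and tools and with each library left out. Slc17a6 and Slc17a8 were lower under all of these. As neither gene overlapped between genotypes, leaving out a library could hardly turn its direction. Leaving out a library gave log2 changes of -3.91 to -3.05 for Slc17a6 (edgeR adjusted p 0.0235 to 0.0575) and -1.37 to -1.14 for Slc17a8 (0.0106 to 0.0553), with 1 or 2 members lower. The call of Slc17a6 ended in 2 of the 8 fits and that of Slc17a8 in 1. Genes lower over the whole table numbered 105 to 140 and genes higher 12 to 28, against 173 and 25, with the fewest lower without wild-type replicate 1 and the fewest higher without wild-type replicate 3. DESeq2 called 411 lower and 153 higher. Whole reads from the authors' table, which lacks wild-type replicate 4, gave 112 lower genes, as did the fit without that library. The replicate block gave 80 lower and 16 higher genes and 0 members, with log2 changes of -3.40 for Slc17a6 and -1.22 for Slc17a8 (edgeR adjusted p = 0.113 and 0.0869), and ended the call of Nefl (0.0820). The numbers are not stated to pair libraries, and the correlations of same-numbered deviations were -0.14, -0.10, 0.14 and -0.26. Without 1 library the log2 ratio of Slc17a8 to Slc17a6 differed by 1.60 to 2.47 and the share of Slc17a8 by 11.7 to 22.7 percentage points. Each passed once, the ratio without mutant replicate 1 and the share without wild-type replicate 1 (exact permutation p = 0.0286, the smallest possible). For the summed level the groups do not overlap, which fixes its direction in these fits, and the exact permutation p was 0.0286 in all 8.

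Several log2 changes that were not called changed sign. With a library left out, log2 changes spanned -0.18 to 0.073 for Slc18a2, -0.022 to 0.25 for Slc38a2, -0.15 to 0.27 for Slc5a7, -0.10 to 0.26 for Bche, -0.045 to 0.048 for Abat, -0.14 to 0.014 for Maoa, -0.042 to 0.43 for Sox2 and -0.86 to 0.14 for Tubb3. Tubb3 was at -0.64 with all libraries and was positive only in the fit without wild-type replicate 3. With no filter Slc18a2 was at 0.00082. With library totals only, Abat was at -0.036, and with at least 1 CPM in 4 libraries at -0.0025. On the authors' table, which lacks wild-type replicate 4, Bche was at -0.070, as in the fit without that library. Depth limits Slc17a7, Slc18a3 and Slc32a1, which had 12 or fewer read pairs in each library and did not pass the filter. With no filter on low counts 2 members were lower and 0 higher. The cause of the changes was not tested.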

Other observations

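Within the 6 transmitter lists, 7 of the 61 genes tested had an unadjusted edgeR p under 0.05 and none passed the adjusted threshold. Among all genes tested 13.4% had such a p, a share that these lists did not exceed. The genes with lower levels in mutants included the proton pump subunit genes Atp6v0a1 (81.6 ± 11.9 CPM in mutants and 99.1 ± 6.20 CPM in wild types) and Atp6v1a (102 ± 14.1 and 120 ± 9.41 CPM), the vesicular amino acid transporter gene Slc6a17 (6.40 ± 1.90 and 9.36 ± 1.19 CPM) and the vesicle protein gene Sv2a (10.1 ± 1.60 and 13.7 ± 2.496 CPM; SD, n = 4 each). Gad2, which makes GABA, was at 3.08 ± 0.569 and 4.48 ± 1.14 CPM, and the glutamine transporter gene Slc38a3 at 25.2 ± 2.53 and 29.3 ± 0.770 CPM. Their edgeR adjusted p ranged from 0.291 for Atp6v0a1 to 0.370 for Atp6v1a. Slc18b1 had a higher level in mutants. Atp6v0a1 and Slc38a3 were the 2 genes of the 61 tested whose mutant libraries all lay below the wild types, and 0 lay above, while 4.89% and 2.98% of all genes tested did so.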
